A study of Mus musculus with 20 samples.

Results

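The 41 genes described here are type I interferon response genes, that is, genes whose transcription is switched on when a cell senses interferon-alpha or interferon-beta. They are a list of well-known interferon-stimulated genes, chosen by name with no threshold on values in these libraries, but with earlier results of these data known. Counts of these genes set beside the share over all genes are therefore a description. All 41 were found among the 55487 gene identifiers of the counts table. All 41 were also among the 16595 genes kept by the filter on low counts. By role, 24 are effectors that block steps of a viral life cycle or otherwise act against infection, 8 are sensors of foreign or misplaced nucleic acid, 3 are transcription factors of the pathway and 6 are enzymes that modify other proteins.

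The study sequenced bulk RNA of microglia, the resident macrophages of the brain, from 10 mice at 2 stages. Every mouse gave 1 library labelled brain cortex and 1 labelled brain brainstem, 20 libraries in all. Per the labels' protocols, Cx3cr1CreER;Braf LSL-V600E embryos were exposed to 4-hydroxytamoxifen through 1 injection of 37.5 mg per kg into the pregnant females at embryonic day 9.5, so that Cre, which is driven by Cx3cr1 in the macrophage lineage, turns on a Braf allele with a constitutively active kinase in progenitors of microglia. The injection is described for the whole series, with no separate account of the controls. At 2 months the controls (Braf WT; CX3 HET, 3 mice) lack the Braf allele and the mutants (Braf VE; CX3 HET, 3 mice) carry it together with the Cre allele. At end-stage the 2 mutants carry the same genotype, and the 2 controls differ from each other: M1521 is Braf WT; CX3 HET and M1375 is Braf VE; CX3 WT, that is, it has the Braf allele without Cre. Counts per gene do not show which cells carried the active kinase. Neither the age of the end-stage mice nor the way the cells were purified is stated in the labels.

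The 2-month genotypes can be read in 2 ways. The title of a record names a mouse and its genotype, while the description of the same record, which is also the column name in the counts table, names another mouse for 5 of the 6 mice. Genotype is assigned here by the mouse number in the column name, which makes M2617, M2621 and M2624 mutants and M2618, M2629 and M2633 controls. Read by the record instead, 4 of the 6 mice change group. All 2-month results below rest on the first reading, and the median over the 41 genes under the second is given with each of them.

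The total of the deposited counts was 9395203 to 21171114 per library. Summed over 10 microglial marker genes, the level was 33715 to 66889 CPM (each library's counts scaled to a common total) in every library, and none of the 10 was at 0 in any group. Ddx3y, a Y-linked gene, and Xist, expressed from the inactive X, marked M2617, M2618 and M2624 as male and the other mice as female. At 2 months the mutants were therefore 2 males and 1 female and the controls 1 male and 2 females. Hoxb5, a gene known from hindbrain and spinal cord and singled out after its values were seen, had 101 counts over 7 of 10 cortex-labelled libraries and 2 counts over 2 brainstem-labelled libraries. This goes against the labelled regions, so libraries are named by their label throughout. In bulk samples, fewer cells of a type and less RNA per cell cannot be told apart.

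Type I interferons bind a receptor made of Ifnar1 and Ifnar2, whose Janus kinases phosphorylate Stat2. Together with Irf9 it is part of a complex that enters the nucleus and binds an element in the promoters of its target genes, in which GAAA is repeated after a short spacer. The sensors and transcription factors are themselves targets, and Irf7 in turn drives the interferon genes. Microglia are known to mount it after viral infection, with damage and with age.

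Promoter stretches of some of the genes are printed first, picked because letters like those of the binding element can be seen in them. RefSeq promoter windows (GRCm38.p6, 250 bases before to 50 bases after the annotated start) were available for 30 of the 41 genes. The motif searched was GAAA followed by NN (any 2 bases) and by GAAA again, on both strands, with overlapping matches counted. It was present in 17 of the 30 genes (56.7%), against 3.99% of all 27025 genes with a window and 3.44% of all 32851 windows of that length. In the stretches below, read 5′ to 3′ on the strand of the gene, capitals mark every match. TTTC runs are matches on the opposite strand.
Isg15: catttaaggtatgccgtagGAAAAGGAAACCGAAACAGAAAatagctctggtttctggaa
Ifit1: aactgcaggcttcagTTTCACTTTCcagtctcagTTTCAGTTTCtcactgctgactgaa
Ifit3: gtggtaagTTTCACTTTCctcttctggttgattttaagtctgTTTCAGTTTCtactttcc
Oas1a: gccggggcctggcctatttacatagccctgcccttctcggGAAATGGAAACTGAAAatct
Oas1g: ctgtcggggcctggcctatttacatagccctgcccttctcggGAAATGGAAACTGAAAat
Rsad2: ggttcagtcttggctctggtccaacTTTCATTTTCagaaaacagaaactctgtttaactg
Bst2: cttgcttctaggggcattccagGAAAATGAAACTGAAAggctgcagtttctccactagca
Ifi207: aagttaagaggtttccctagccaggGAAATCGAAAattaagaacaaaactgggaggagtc
Ifi211: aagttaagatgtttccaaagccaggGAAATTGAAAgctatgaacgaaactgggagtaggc

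Isg15 (chr4:156200856-156200915, minus strand) held 3 overlapping matches in a row, the most among those printed. Ifit1 (chr19:34640770-34640828, plus strand) and Ifit3 (chr19:34583365-34583424, plus strand) each held 2 separate ones. The Ifit3b stretch (chr19:34607761-34607820, plus strand) had the same letters as that of Ifit3. Oas1a (chr5:120907526-120907585, minus strand) and Oas1g (chr5:120887614-120887673, minus strand) each held 2 overlapping matches within 20 bases of the start, as did Bst2 farther upstream (chr8:71537565-71537624, minus strand). Rsad2 (chr12:26456538-26456597, minus strand), Ifi207 (chr1:173741816-173741875, minus strand) and Ifi211 (chr1:173913049-173913108, minus strand) held 1 each. The mutant minus control difference in cortex-labelled libraries at 2 months was similar with and without this motif: its median on the log2 scale was 4.16 for the 17 genes with a match and 4.14 for the 13 without one. A match is a description of the letters and was not tested as a binding site.

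**Figure D1:**
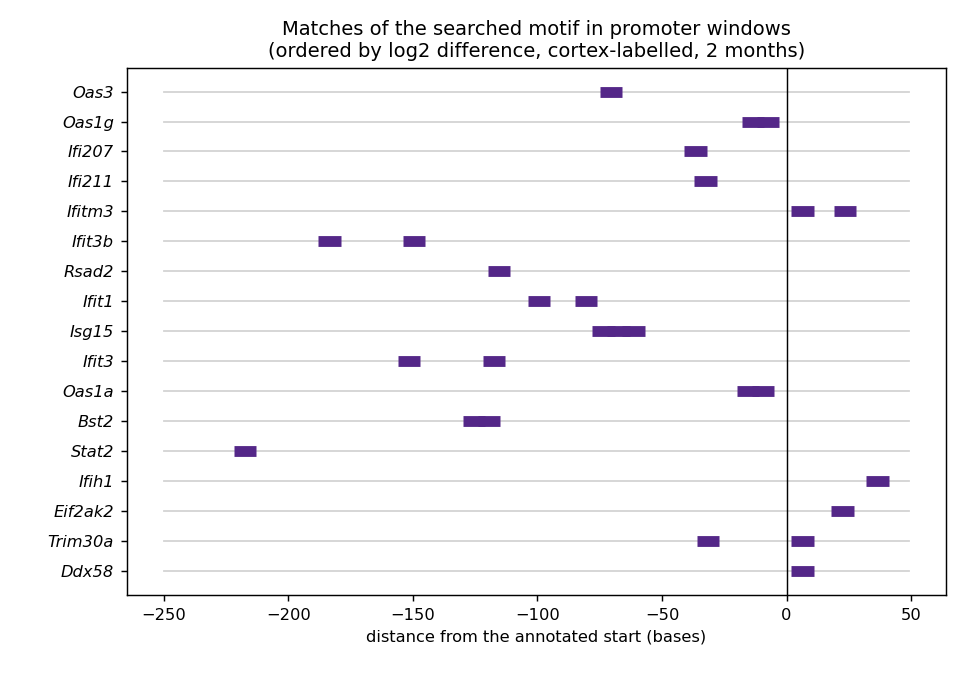
Position of each match of that motif (purple bars) in the 300-base promoter window of the 17 genes that held one, in bases from the annotated start (vertical line), with genes ordered by their log2 difference in cortex-labelled libraries at 2 months. Most bars lie before the start, and genes with 1 match and with 2 are found from the top of the order to the bottom.

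The genes lie on 15 chromosomes, and 16 of the 41 sit in 5 clusters of related copies in GRCm38. The Ifit genes (Ifit1, Ifit2, Ifit3 and Ifit3b) lie within chr19:34550694-34650009, the Oas genes (Oas1a, Oas1g, Oas2 and Oas3) within chr5:120730333-120907521 and Oasl1 and Oasl2 within chr5:114896936-114937915. The Ifi200 genes (Ifi204, Ifi207, Ifi209 and Ifi211) lie within chr1:173630917-173913046, and Mx1 and Mx2 within chr16:97447035-97560900. Reads of such copies can be shared between them, and the labels do not state how reads that match several places were counted. Genes that overlap a neighbour, such as Parp9 and Dtx3l, Irf7 and Phrf1, Rtp4 and Masp1, Irf9 and Rnf31, and Ifi211 and Mndal, can share reads likewise. Values of single members of these families are therefore uncertain.

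In cortex-labelled libraries at 2 months, all 41 genes rose in the mutants (adjusted p of 0.000106 to 0.0474, edgeR's quasi-likelihood test with Benjamini-Hochberg adjustment over all genes). Over all 16595 genes tested, 3.64% rose and 1.81% fell. The median log2 difference was 4.16 over the 41 genes and -0.01 over all genes. Oas3 had no count in any control, and its lower bound of 8.75 is above that median, so the median does not depend on it. For all 41 genes every mutant library lay above every control library, which held for 13.4% of all genes. That includes the female mutant M2621 against both female controls. Summed over the 41 genes, the level was 656 to 792 CPM in the controls and 5683 to 6335 CPM in the mutants.

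Read by the record, none of the 41 genes was called in this comparison, where 0.00603% of all genes were called. None of the 41 had an unadjusted p under 0.05 (edgeR, smallest adjusted p of 1). Of the 41 differences 39 were negative, with a median of -0.67. Without the 4 mice whose genotype depends on the reading, 1 mutant (M2624) and 1 control (M2629) remained, both of whose genotypes are the same under both readings. All 41 differences were then positive, with a median of 3.81. Calls are not given for that fit, since a lone library shows no spread of its own. With each mouse left out in turn, 31 genes passed in every fit, where each fit called 462 to 962 of all genes. Cmpk2, Dhx58 and Oas1a lost the call without M2633 only. Of the 10 mice, Ddx58 lost it without any of 3, Ifi209 and Mx2 of 4 and Samd9l of 5. Irf9 lost it without any of 6 mice, Herc6 of 7 and Eif2ak2 of 9, which included end-stage mice.

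**Figure D2:**
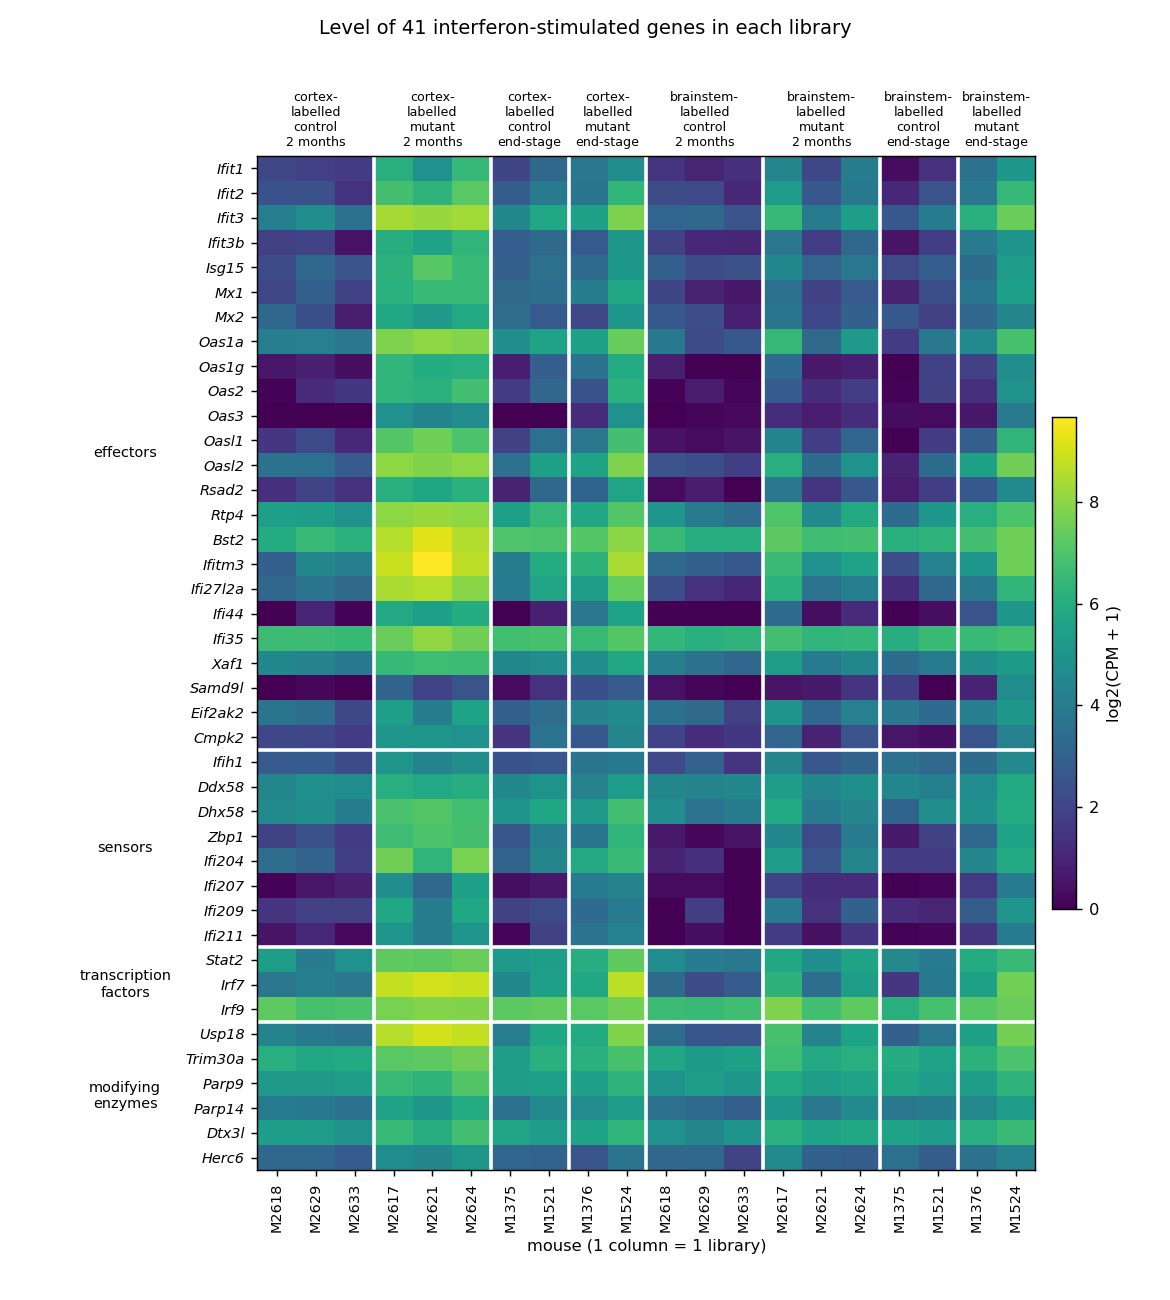
Level of each of the 41 genes (rows, grouped by role) in each of the 20 libraries (columns, grouped by labelled region, genotype and stage), as log2(CPM + 1). The 3 mutant cortex-labelled libraries at 2 months are the brightest block, followed by both end-stage libraries of M1524 and the 2-month brainstem-labelled library of M2617.

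All 24 effectors rose in that comparison, with a median log2 difference of 4.64. Isg15 encodes a ubiquitin-like protein that is secreted or attached to other proteins. It was at 3.66, 8.56 and 4.82 CPM in the controls (M2618, M2629 and M2633, in this order throughout) and at 73.5, 142 and 90.4 CPM in the mutants (M2617, M2621 and M2624). This was 17.9-fold higher (log2 difference 4.16 ± 0.59 SE, adjusted p = 0.000952).

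The Ifit proteins bind viral RNA and hold back its translation. Ifit1 was at 3.12, 2.55 and 2.18 CPM in the controls and at 65.7, 28.5 and 89.2 CPM in the mutants, 23.4-fold higher (log2 difference 4.54 ± 0.71 SE, adjusted p = 0.00133). Ifit3 was at 16.9, 25.6 and 10.6 CPM in the controls and at 327, 287 and 323 CPM in the mutants, 17.6-fold higher. M2621 had the lowest Ifit1 and Ifit3 values of the 3 mutants and the highest Isg15 value. Ifit2 (76.5 to 146 CPM against 1.65 to 4.43) and Ifit3b (47.1 to 78.2 against 0.396 to 2.96) were also higher in every mutant.

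Bst2, or tetherin, holds budding virus particles at the cell surface, and had the smallest p of the 41 genes. It was at 63.0, 89.4 and 71.3 CPM in the controls and at 389, 603 and 371 CPM in the mutants, 6.09-fold higher (log2 difference 2.61 ± 0.28 SE, adjusted p = 0.000106). Ifitm3 blocks the entry of viruses from endosomes. It was at 6.83, 20.4 and 16.6 CPM in the controls and at 461, 812 and 413 CPM in the mutants, 38.4-fold higher, and its 812 CPM in M2621 was the highest value of any of the 41 genes in any library. Ifi27l2a, a small interferon-induced membrane protein, went from 8.09, 12.0 and 9.12 CPM to 343, 385 and 249 CPM.

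The Oas enzymes make oligoadenylates, the messenger that activates RNase L. Oas3 had no count in any of the 5 cortex-labelled control libraries and was at 28.8, 19.7 and 24.0 CPM in the 2-month mutants, at least 430-fold higher against a floor of 3 counts over the 3 control libraries. Oas1a was at 13.3 to 17.7 CPM in the controls and 222 to 257 CPM in the mutants, Oas1g at 0.330 to 0.851 and 61.8 to 80.3, and Oas2 at 0.0547 to 1.98 and 70.3 to 109. The Oas-like genes followed, with Oasl1 67.4-fold and Oasl2 26.8-fold higher. Ifi44, an interferon-induced cytoplasmic protein, was at 0, 1.002 and 0.0661 CPM in the controls and at 55.8, 43.3 and 62.8 CPM in the mutants.

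Among the rest, the dynamin-like GTPases Mx1 and Mx2 were 20.01-fold and 11.02-fold higher. Rsad2, or viperin, which makes a nucleotide that stops viral RNA chains, was 30.7-fold higher. Cmpk2, a mitochondrial nucleotide kinase, was 10.9-fold higher. Rtp4 was 7.11-fold and Ifi35 2.22-fold higher. Xaf1, which promotes cell death, was at 21.7, 19.03 and 14.1 CPM in the controls and 88.1, 100 and 99.1 CPM in the mutants (log2 difference 2.39 ± 0.37 SE, adjusted p = 0.00133). Samd9l had 3 counts in the 3 controls together and 268 in the mutants, a ratio of 86.2 with an exact 95% interval of 29.2 to 421 that covers counting error only. Eif2ak2, the kinase that halts translation on double-stranded RNA, was 4.14-fold higher with an adjusted p of 0.0474, at the edge of the threshold.

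All 8 sensors rose, with a median log2 difference of 4.36. Among the sensors of viral RNA, Ddx58 (RIG-I) was at 20.6, 27.5 and 24.8 CPM in the controls and 67.02, 55.7 and 63.7 CPM in the mutants, 2.56-fold higher. Ifih1, which senses long double-stranded RNA, was 4.91-fold higher, and Dhx58, which helps it, 5.35-fold higher. Zbp1 binds nucleic acid in the Z form and can trigger cell death. It was at 2.79, 4.26 and 2.25 CPM in the controls and at 100, 121 and 111 CPM in the mutants, 35.7-fold higher.

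The Ifi200 genes encode proteins of a family that binds DNA. Ifi204 was at 9.95, 7.36 and 2.51 CPM in the controls and at 188, 78.9 and 211 CPM in the mutants. Ifi207 was at 0.0547, 0.501 and 0.859 CPM in the controls and at 26.0, 8.71 and 43.0 CPM in the mutants, 54.9-fold higher. Ifi209 reached 16.04 to 54.3 CPM and Ifi211 16.2 to 32.3 CPM in the mutants. M2621 was the lowest of the mutants for Ifi204, Ifi207 and Ifi211, as it was for 24 of the 41 genes in cortex-labelled libraries, while it was the highest for 15.

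The 3 transcription factors rose by unequal amounts. Irf7, which drives transcription of the interferon genes, was at 13.2, 17.1 and 13.1 CPM in the controls and at 434, 510 and 464 CPM in the mutants, 32.5-fold higher. Stat2 was at 40.6, 16.3 and 30.5 CPM in the controls and at 156, 149 and 178 CPM in the mutants (log2 difference 2.47 ± 0.37 SE, adjusted p = 0.00115). Irf9, its partner, was already at 153, 115 and 118 CPM in the controls and reached 210, 234 and 229 CPM, 1.74-fold higher (adjusted p = 0.0474), the smallest difference of the 41 genes.

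All 6 modifying enzymes rose, with a median log2 difference of 1.61. Usp18 takes Isg15 off proteins and blocks the interferon receptor. It was at 19.2, 13.97 and 12.0 CPM in the controls and at 380, 509 and 437 CPM in the mutants, 29.4-fold higher (log2 difference 4.87 ± 0.72 SE, adjusted p = 0.00111). The other 5 were 2.37-fold to 3.51-fold higher: Trim30a, the ADP-ribosyltransferases Parp9 and Parp14, the ubiquitin ligase Dtx3l, which pairs with Parp9, and Herc6, the ligase that attaches Isg15 in mice.

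Markers of other cells moved with the interferon genes in part. Summed over 8 monocyte markers, cortex-labelled libraries at 2 months held 1.15 to 7.71 CPM in controls and 75.7 to 118 CPM in mutants. Plac8 and Fn1 passed the test there, and Ly6c2 was under 1.13 CPM and S100a4 under 0.199 CPM in every cortex-labelled library. Summed over 8 markers of border-associated macrophages, cortex-labelled libraries at 2 months held 2.79 to 32.4 CPM in controls and 68.7 to 116 CPM in mutants, of which 64.8 to 109 CPM were Siglec1, which is also known as an interferon-stimulated gene and was the only 1 of the 8 to pass. The median log2 difference of the 8 in this comparison was -1.95, the opposite direction to their sum. Mrc1, Cd163, Lyve1 and Pf4, which define these macrophages, stayed under 6.6 CPM in every cortex-labelled library. The 5 markers of plasmacytoid dendritic cells, a major source of type I interferon in other tissues, summed to 11.3 to 19.6 CPM in these mutants and 2.11 to 8.77 CPM in the controls. Of 3 tested, 1 (Cox6a2) was called higher, while the median log2 difference of the 3 was -0.83. The 7 endothelial and pericyte markers summed to 66.4 to 73.96 CPM in these mutants and 22.001 to 35.1 CPM in the controls, and Flt1 and Kdr rose. T and NK cell markers summed to at most 2.41 CPM in any group. Among the microglial markers, P2ry12 and Sall1 fell in the same comparison, by 1.10 and 0.59 on the log2 scale. The part of these markers in the interferon results was not tested.

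**Figure D3:**
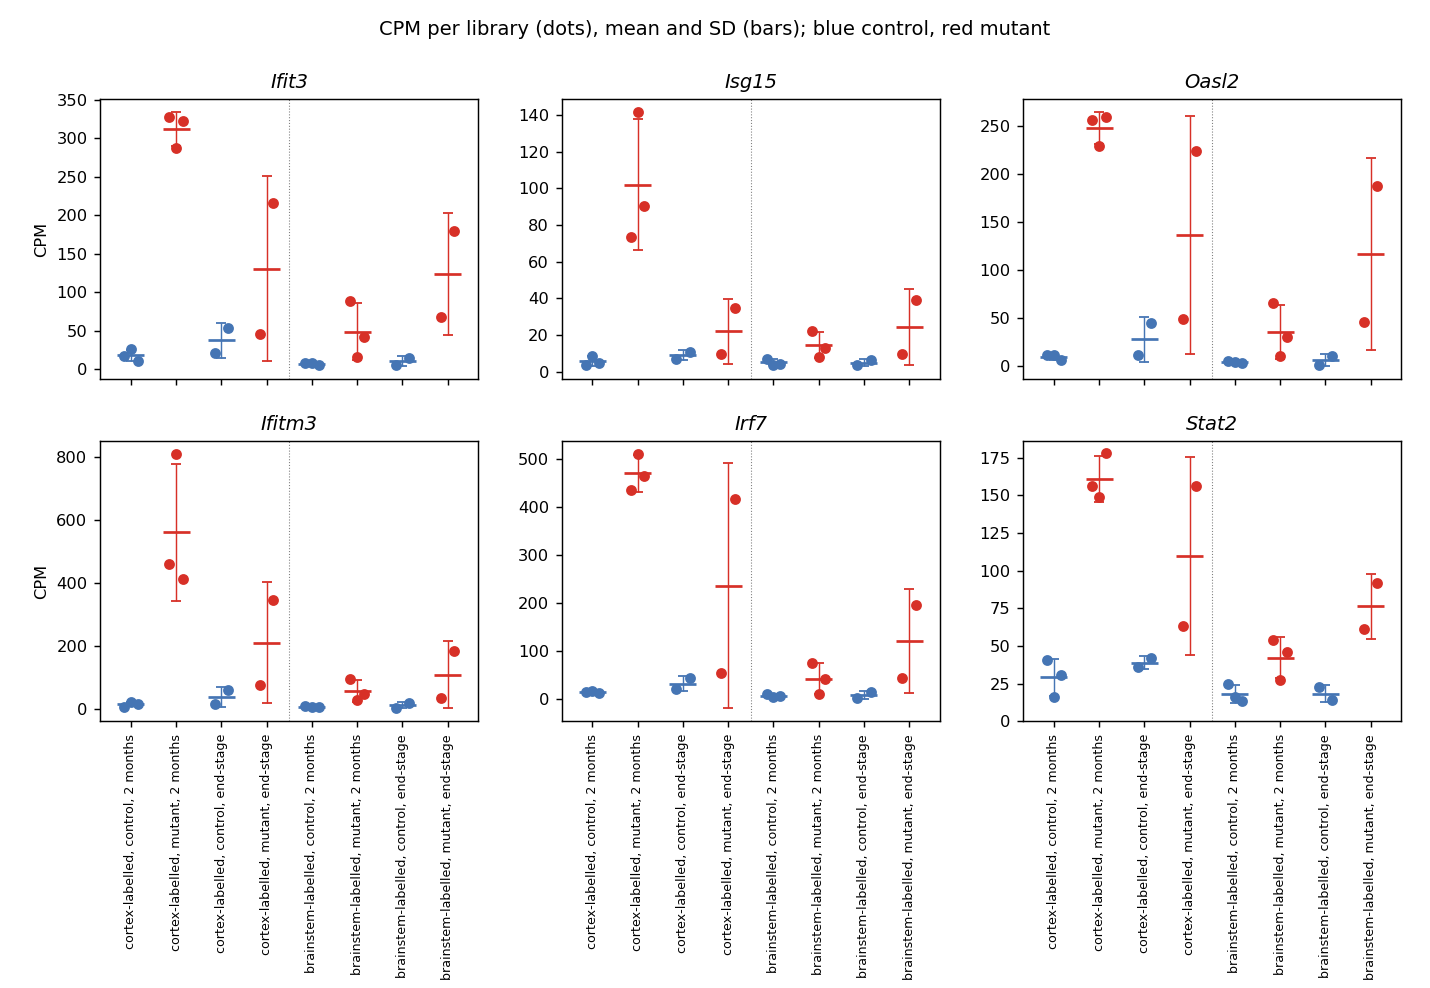
CPM of 6 of the genes in every library (dots), with the mean (horizontal bar) and SD (vertical bar, n = 3 at 2 months and n = 2 at end-stage) of each group; controls are blue and mutants red. The cortex-labelled mutants at 2 months lie far above their controls for each gene, while the 2 end-stage mutants lie far apart in both labelled regions.

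In brainstem-labelled libraries at 2 months, no gene passed the test (edgeR, smallest adjusted p of 0.0652), although all 41 differences were positive, with a median of 2.45 against 0.00 over all genes, and 33 had an unadjusted p under 0.05. Of all genes, 0.0181% were called higher, and 1461 of 16595 had an unadjusted p under 0.05. DESeq2 called 15 of the 41 (1.19% of all genes), and edgeR without the low-count filter called 35 (1.49% of 33450 genes). Without M2621, Ifi204, Ifit1 and Zbp1 passed, and without M1376 or without M1524, Usp18 and Zbp1 did. The fits with 1 mouse left out called 0 to 12 of all genes. The median was 1.57 without M2617. For 26 of the 41 genes the groups did not overlap, which held for 7.19% of all genes. Read by the record, none was called by edgeR (0.00603% of all genes) and 40 of 41 differences were negative, with a median of -0.67.

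The 3 mutants differed from each other there. Summed over the 41 genes, the level was 478 to 632 CPM in the controls and 2004, 715 and 1133 CPM in M2617, M2621 and M2624. M2617 was the highest of the 6 libraries for 40 genes, and M2621 the lowest of the mutants for 38. Zbp1 was at 0.565, 0.165 and 0.409 CPM in the controls and at 21.9, 3.54 and 15.2 CPM in the mutants (log2 difference 5.12 ± 0.97 SE, adjusted p = 0.0676). Ifi204 was at 0.905, 1.48 and 0 CPM in the controls and at 38.7, 4.77 and 20.3 CPM in the mutants, and had the smallest adjusted p (0.0652).

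The same order of mice held for the other genes with the smallest p. Usp18 was at 10.0, 5.05 and 4.85 CPM in the controls and at 113, 19.3 and 48.2 CPM in the mutants. Ifit1 was at 1.81, 0.988 and 1.46 CPM against 20.3, 3.29 and 15.5 CPM, and Ifi27l2a at 3.96, 1.59 and 0.993 CPM against 71.6, 11.7 and 17.1 CPM. Dtx3l was at 28.6, 20.7 and 31.0 CPM against 71.1, 47.2 and 52.6 CPM. In each of these genes M2621 still lay above all 3 controls. Summed monocyte markers were at 4.30 to 5.38 CPM in these controls and 10.4 to 20.997 CPM in the mutants, and summed endothelial and pericyte markers at 55.4 to 69.3 and 111 to 121 CPM. No marker of either list passed the test, and their part in the differences was not tested.

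**Figure D4:**
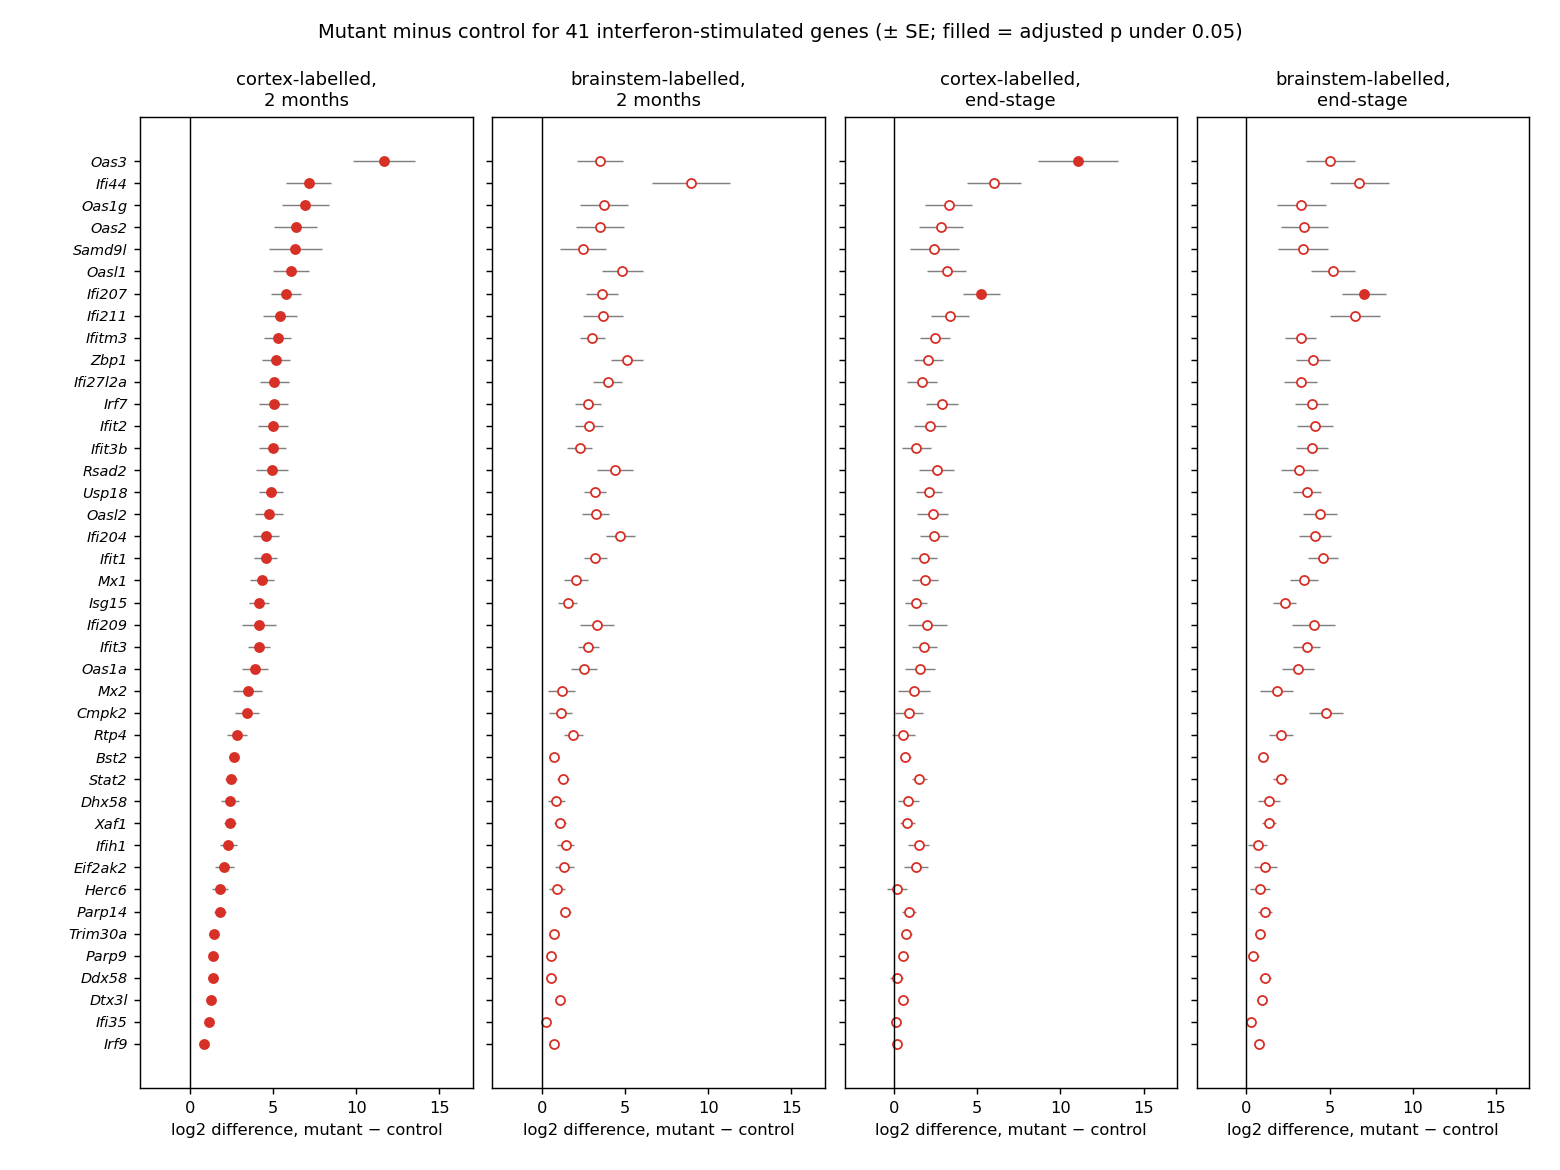
Mutant minus control log2 difference of each gene (points, with SE as bars) in the 4 genotype comparisons, ordered by the cortex-labelled comparison at 2 months; filled points had an adjusted p under 0.05. Every point lies to the right of 0 in all 4 panels, and 41, 0, 2 and 1 points are filled; Oas3 had no count in the cortex-labelled controls and Ifi44 none in the 2-month brainstem-labelled controls, so their positions there depend on the fit's prior count.

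In cortex-labelled libraries at end-stage, 2 of the 41 genes rose, Ifi207 and Oas3, where 1.83% of all genes rose and 2.18% fell. An unadjusted p under 0.05 was found for 22 of the 41, and for 2951 of all 16595 genes. All 41 differences were positive, with a median of 1.66 against 0.02 over all genes. The size rested on M1524: without it the median was 0.31 and 31 of 41 differences were positive. Groups did not overlap for 22 of the 41 genes, while 25.1% of all genes had every mutant above every control. Ifi207 was at 0.318 and 0.548 CPM in the controls (M1375 and M1521) and at 14.8 and 19.1 CPM in the mutants (M1376 and M1524), 39.2-fold higher (log2 difference 5.22 ± 1.11 SE, adjusted p = 0.0124). Oas3 had no count in the controls and was at 1.25 and 29.8 CPM in the mutants, at least 124-fold higher against a floor of 3 counts over both controls (adjusted p = 0.0199). Neither remained called without M1375 or without M1521, with limma-voom and the mouse as a random block, or with the record reading of the 2-month mice, which changes the shared spread. Without M1376 the median log2 difference was 2.21.

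The 2 end-stage mutants differed widely from each other. M1524 was above M1376 for 41 of 41 genes, with summed levels of 4074 and 1390 CPM against 889 and 1322 CPM in M1375 and M1521. M1524 was above both controls for all 41 genes and M1376 for 22. Irf7 was at 20.7 and 42.4 CPM in the controls, 54.6 CPM in M1376 and 415 CPM in M1524, and Stat2 at 35.8 and 42.2, 63.2 and 156 CPM. Ifi44 was at 0 and 0.821 CPM in the controls and at 13.1 and 47.7 CPM in the mutants (adjusted p = 0.0526), and Ifi211 at 0.106 and 2.67 against 11.8 and 17.9 CPM (adjusted p = 0.124). Summed monocyte markers were at 0.424 to 8.55 CPM in these controls and at 113 and 868 CPM in M1376 and M1524, of which Fn1 made up 863 CPM in M1524. Summed microglial markers were at 51780 to 56106 CPM in the controls and 33715 to 41428 CPM in the mutants. Of the 10 microglial markers 4 fell, among them P2ry12, Sall1 and Fcrls. Summed markers of border-associated macrophages were at 22.8 to 28.1 CPM in the controls and 58.6 to 278 CPM in the mutants, of which Siglec1 made up 28.8 and 218 CPM in M1376 and M1524 and Ms4a7 17.7 and 45.9 CPM. None of these 8 passed the test. Of 5 tested endothelial and pericyte markers Flt1 and Kdr rose and Pecam1 fell, and the astrocyte marker Gfap rose. Their part in the result was not tested.

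In brainstem-labelled libraries at end-stage, Ifi207 alone of the 41 rose, where 0.0844% of all genes rose and 0.0663% fell. An unadjusted p under 0.05 was found for 35 of the 41, and for 1731 of all 16595 genes. All 41 differences were positive, with a median of 3.28 against -0.02 over all genes. Without M1524 the median was 1.54 and 38 of 41 were positive. Groups did not overlap for 35 of 41 genes, against 18.5% of all genes. Ifi207 had 2 counts in the 2 controls together and was at 2.11 and 14.7 CPM in M1376 and M1524, a ratio of 151 with an exact 95% interval of 41.6 to 1255 for counting error only (adjusted p = 0.0428). The call was lost without any of M1375, M1521, M1524, M2617, M2624 and M2629, with only the compared groups in the fit, with limma-voom and under the record reading of the 2-month mice. DESeq2 called 19 of the 41 genes (2.13% of all genes) and edgeR without the low-count filter 36 (1.72% of 33450 genes). Without M1376 the median log2 difference was 4.05. Without M2621 4 genes were called, and the share of all genes in that fit is not given here.

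Below the threshold, Ifit1 was at 0.245 and 1.61 CPM in these controls and 11.2 and 34.8 CPM in the mutants (log2 difference 4.59 ± 0.90 SE, adjusted p = 0.0515). Cmpk2 was at 0.490 and 0.311 CPM against 4.77 and 17.6 CPM, Ifit3 at 5.33 and 14.6 against 67.9 and 180 CPM, and Stat2 at 22.5 and 14.3 against 61.2 and 91.7 CPM. Ifi211 was at 0.0612 and 0.104 CPM against 1.89 and 15.2 CPM. M1524 was again above M1376 for all 41 genes, and M1376 was above both controls for 35. The summed levels were 524 and 690 CPM in the controls and 1203 and 3053 CPM in the mutants. Summed monocyte markers were at 3.55 to 6.53 CPM in the controls and 13.04 to 87.7 CPM in the mutants, with no marker called, and their part was not tested.

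Whether the mutant minus control difference changed with region was tested by an interaction within each stage. At 2 months no gene passed (edgeR, 12 of 41 with an unadjusted p under 0.05), where 0.0121% of all genes were called lower. Of all 16595 genes, 1381 had an unadjusted p under 0.05. The brainstem-labelled difference was smaller than the cortex-labelled one for 39 of 41 genes, with a median of -1.36 log2 units against 0.02 over all genes. The median was -2.10 without M2617, and read by the record it was -0.11, with 16 of 41 genes positive. With the mouse as a fixed block, since both libraries of a mouse come from the same animal, 4 genes were called, all with a smaller difference in brainstem-labelled libraries: Bst2 (-1.89 ± 0.31 SE, adjusted p = 0.0193), Mx2 (-2.57 ± 0.53), Ifit2 (-2.54 ± 0.53) and Oas3, whose cortex-labelled controls had no count. This block called 0.723% of all genes. DESeq2 called 2 of the 41 without the block (0.591% of all genes). Bst2 (-1.92 ± 0.37 SE, adjusted p = 0.124), Isg15 and Ifi35 had the smallest p without it, and Bst2 passed without M1376 or without M1524.

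At end-stage the order was the other way, with a median of 0.97 and 37 of 41 genes showing the larger difference in brainstem-labelled libraries, but no gene passed (edgeR, 2 of 41 with an unadjusted p under 0.05, where 0.0603% of all genes were called higher and 0.0241% lower). By edgeR 882 of all 16595 genes had an unadjusted p under 0.05, a share similar to that of the 41. DESeq2 and the block called none of the 41. Cmpk2 (3.90 ± 1.29 SE, adjusted p = 0.616), Ifit1 and Ifit3b had the smallest p.

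Whether the difference changed with stage was tested in the same model. In cortex-labelled libraries it was smaller at end-stage than at 2 months for 41 of 41 genes, with a median of -2.20 against -0.01 over all genes. No gene passed (edgeR, 18 of 41 with an unadjusted p under 0.05), where 0.169% of all genes were called lower and 0.0964% higher. Of all 16595 genes, 1645 had an unadjusted p under 0.05. DESeq2 called 2 (1.46% of all genes) and limma-voom with the mouse as a random block called 1 (0.253% of all genes). By edgeR Bst2 had the smallest p (-1.96 ± 0.42 SE, adjusted p = 0.0588), followed by Ifi35 and Isg15. Without M1524 the median was -3.29. Without M1521 the median was -1.43, and under the record reading it was 2.45, the opposite sign. Taking the mutants alone, both end-stage libraries lay below all 3 at 2 months for 28 of 41 genes. M1376 did so for 38 and M1524 for 28. The share of all genes that did so was not computed, so these counts are a description only.

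In brainstem-labelled libraries the median change of the difference with stage was 0.41 and 29 of 41 genes were positive. This direction rested on M1524: without it the median was -0.41 and 9 of 41 genes were positive. With other mice left out it was 0.04 (without M2621) to 1.15 (without M1521), and under the record reading it was 4.40. No gene passed (edgeR, 1 of 41 with an unadjusted p under 0.05, none by DESeq2 or limma-voom), and 0% of all genes were called higher and 0.00603% lower. By edgeR 733 of all 16595 genes had an unadjusted p under 0.05. Cmpk2 (3.69 ± 1.21 SE, adjusted p = 0.99995), Ifi207 and Stat2 had the smallest p. For 3 genes both end-stage mutants lay above all 2-month mutants, and the share of all genes that did so was not computed. In sum, M2617 at 2 months (2004 CPM) lay between M1376 and M1524.

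Controls were compared between stages because 1 of the end-stage controls differs in genotype from the 2-month controls. In cortex-labelled controls no gene passed (edgeR, 4 of 41 with an unadjusted p under 0.05, none by DESeq2, 0% of all genes called) and the median end-stage minus 2-month difference was 0.86. It was 0.20 without M1521, and -2.48 under the record reading, with no gene positive. In the main edgeR fit 1432 of all 16595 genes had an unadjusted p under 0.05, a share similar to that of the 41. M1521, which carries Cre without the Braf allele, was above M1375 for 36 of 41 genes. Its Ifitm3 was at 60.8 CPM against 15.99 CPM in M1375 and 6.83 to 20.4 CPM in the 2-month controls, and its Oasl2 at 43.9 CPM against 10.8 CPM and 5.81 to 11.2 CPM. Bst2 had the smallest p (0.73 ± 0.29 SE, adjusted p = 0.528), at 128 and 119 CPM in the end-stage controls, and Ifit3b and Samd9l followed. In brainstem-labelled controls the median was 0.36, but -0.32 without M1521, 0.73 without M2618, 0.58 without M1375 and -1.30 under the record reading, and no gene passed (edgeR, 3 of 41 with an unadjusted p under 0.05, none by DESeq2, 0% of all genes called). Dtx3l, Cmpk2 and Ifih1 had the smallest p there, with adjusted p of 0.552 to 0.57. In these controls 1367 of all 16595 genes had an unadjusted p under 0.05 by edgeR, again a similar share.

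Across all groups, 26 of the 41 genes were lower in the libraries labelled brainstem and none was higher, where 7.53% of all genes were lower and 6.51% higher. The median difference was -1.18 log2 units, against -0.01 over all genes. With the mouse as a block 33 of the 41 were lower, of 17.6% of all genes called in either direction. Ifi204 (-2.35 ± 0.42 SE, adjusted p = 0.00127), Stat2 (-1.06 ± 0.20 SE, adjusted p = 0.0021) and Zbp1 (-2.36 ± 0.45 SE, adjusted p = 0.00212) had the smallest p. Read by the record, 3 of the 41 genes were called, where 9.56% of all genes were called in either direction, and the median was -1.69. Without the 4 mice whose genotype depends on the reading the median was -1.40. Of 6 oligodendrocyte markers 4 were lower in brainstem-labelled libraries too, with summed levels of 145 to 249 CPM there and 167 to 275 CPM in cortex-labelled ones, as were 2 of 5 tested astrocyte markers, and 4 of 10 microglial markers were higher. Their part in the result was not tested.

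Within mice, 14 of the 41 genes were lower in the brainstem-labelled library of all 10 mice, which held for 3.51% of all genes, and a further 11 in 9 mice. Those lower in all 10 included Usp18, Mx1, Oas1a, Oasl1, Oasl2, Rsad2, Irf7, Stat2, Zbp1 and Ifi204. The difference within a mouse, as a median over the genes on the log2(CPM + 1) scale, was -1.75, -3.62 and -2.79 in the mutants M2617, M2621 and M2624. It was -0.30 to -0.78 in the 3 controls of that stage, -0.29 and -0.26 in the end-stage mutants and -0.87 and -1.20 in the end-stage controls. The 2-month mutants, whose cortex-labelled levels were the highest, thus had the widest gap between their paired libraries.

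**Figure D5:**
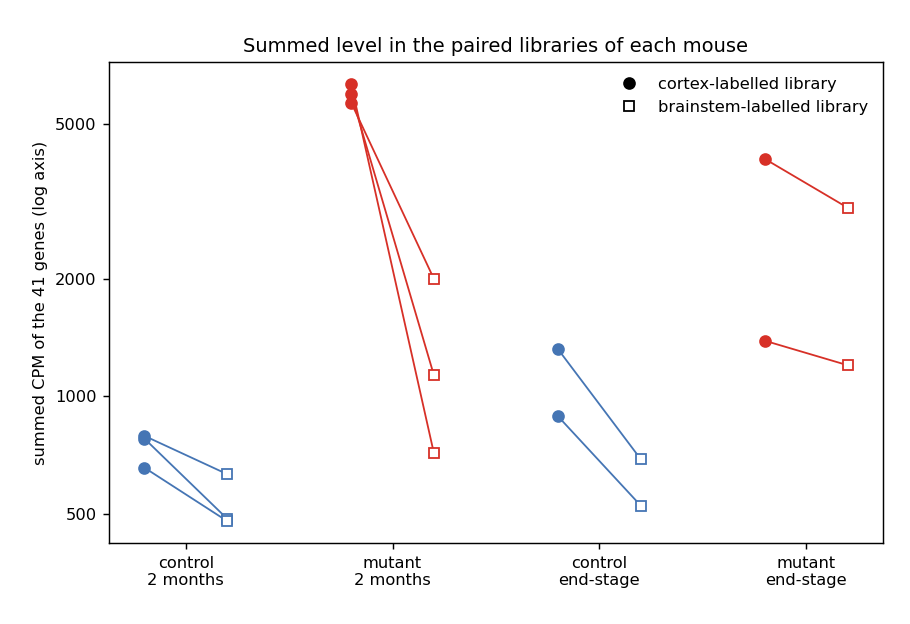
Summed CPM of the 41 genes (log axis) in the cortex-labelled (filled circles) and brainstem-labelled (open squares) library of each mouse, joined by a line; controls are blue and mutants red. Every line falls from cortex-labelled to brainstem-labelled, most steeply in the 3 mutants at 2 months, and M2621 falls from the highest cortex-labelled sum (6335 CPM) to 715 CPM.

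Levels were compared between genes per kilobase of annotated exon, as a mean over all 20 libraries. Ifitm3 (196 CPM per kb, 5.87 to 1198 over libraries), Bst2 (180, 69.8 to 668) and Ifi27l2a (161, 2.15 to 832) were the highest. The order differed in controls: in the cortex-labelled controls at 2 months the means were 82.6 for Bst2, 55.1 for Ifi35 and 23.9 for Irf9, above Ifitm3 (21.6) and Ifi27l2a (21.04). Herc6 (1.28, 0.314 to 3.67), Oas3 (0.870, 0 to 4.21) and Samd9l (0.543, 0 to 4.60) were the lowest. The lowest library of Bst2 was thus above the highest of Herc6, Oas3 and Samd9l, while Ifitm3 and Ifi27l2a ranged from a few CPM per kb to the highest values of all. Samd9l was at most 7.39 CPM in every library but 1, the brainstem-labelled library of M1524, where it was at 24.98 CPM. Herc6 was at 21.2 to 34.1 CPM in the cortex-labelled 2-month mutants and at 2.92 to 23.1 CPM in all other libraries.

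Upstream of these genes, the ligands were near the limit of detection. Of 18 type I interferon genes in the table, 1 passed the filter, Ifnb1, which encodes interferon-beta. It was at 2.87, 4.20 and 0.824 CPM in the cortex-labelled mutants M2617, M2621 and M2624 at 2 months and at 0, 0 and 0.0661 CPM in the controls (log2 difference 6.62 ± 2.03 SE, adjusted p = 0.0762), so that it did not pass the test although the groups did not overlap. At end-stage it was at 0 CPM in both libraries of M1376, and in M1524 at 1.04 CPM (cortex-labelled) and 1.08 CPM (brainstem-labelled). The control M1521 had 0.548 CPM in its cortex-labelled library. In brainstem-labelled libraries at 2 months it was at 1.10, 0.0491 and 0.240 CPM in the mutants and had no count in the controls. Interferon-gamma (Ifng) had no count in any of the 20 libraries. None of the 6 receptor genes passed the test in any genotype comparison, with medians of -0.10 to 0.12.

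Among the signalling genes, Stat3 and Irf8 rose in cortex-labelled mutants at 2 months, by 0.63 ± 0.16 SE and 0.56 ± 0.15 SE on the log2 scale (adjusted p = 0.0299 and 0.0385). Stat3 was at 141 to 174 CPM in the controls and 215 to 280 CPM in the mutants. No gene of this list was called in the other 3 genotype comparisons. Of 14 tested genes that induce interferon from nucleic acids or edit or degrade them, Adar and Samhd1 rose there (log2 differences 1.73 and 0.85), both known as interferon-stimulated genes themselves. At end-stage in cortex-labelled libraries Ikbke rose and Tmem173, which encodes the adaptor STING, fell by 0.65 on the log2 scale. Of 6 negative regulators, Socs1, Socs3 and Isg20 rose in cortex-labelled mutants at 2 months, by 1.27, 1.33 and 3.38, of which Isg20 is a nuclease induced by interferon and no regulator of the receptor.

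Genes linked to interferon-gamma moved in the same comparison. Of 10 tested, 6 rose in cortex-labelled mutants at 2 months: Cxcl10, a chemokine, Gbp2 and Gbp5, which are guanylate-binding proteins, and the immunity-related GTPases Igtp, Irgm1 and Iigp1. Cxcl10 was at 2.84 to 6.06 CPM in the controls and 126 to 245 CPM in the mutants (adjusted p = 0.0101). The summed level of the list was 195 to 237 CPM in the controls and 734 to 823 CPM in the mutants. Many of these genes also respond to type I interferon. None was called in the other 3 genotype comparisons.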

How the data were processed

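Bulk RNA of microglia was measured in 20 libraries of 10 mice. The values are whole-number counts for each gene, deposited as a single table without normalization. FastQC, Subread, edgeR and the build mm10 are named, without versions or roles, per the submitters' processing notes. RNA was amplified with SMART-Seq v4 over 12 cycles and libraries were made with KAPA Hyper Prep over 8 cycles, per the labels' protocols. No molecular identifiers are mentioned, so amplified reads may be copies of 1 molecule and limits from counts cover counting error only. Annotation, strand setting and multi-mapping are not given in the sources used here.

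Of 55487 identifiers, 55394 were matched to GENCODE M21 symbols, 300 of them without the version number. The other 93 held 0.00123% of the counts. The members, their roles and all gene lists were chosen with earlier results of these data known.

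Counts were fitted with edgeR 4.0.16 (filterByExpr, TMM, glmQLFit and glmQLFTest, R 4.3.3) in 1 model over 8 groups. Contrasts gave 11 comparisons, with Benjamini-Hochberg adjustment over 16595 genes and a threshold of 0.05. CPM used TMM-scaled library sizes. End-stage groups hold 2 mice, so their tests lean on the spread of all groups. A floor of 3 counts stands for a count of 0. Per-library values are given for the 6 genes with the smallest p in each genotype comparison and for the 3 highest and 3 lowest per length, with others by range; in the other comparisons the 3 with the smallest p are named. Likeness of pattern between members was not computed. Alternatives were DESeq2 1.42.0, no low-count filter, only the compared groups, genotype by the sample record, each mouse left out, the 4 mice of disputed genotype left out, and the mouse as a block. Both libraries of a mouse come from the same animal, so they are paired by origin. Scripts were tested on simulated data with known changes. Some genes of the lists are not reported here.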

Additional observations from a re-analysis of the deposited data

How the results depend on the processing

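The 2-month results depend on how genotype is read, and the end-stage and brainstem-labelled calls on the filter and the tool. Counts here are of the 41 genes called. Read by the sample record, 0 were called in each genotype comparison (0.00603% to 1.03% of all genes) and 3 in the region comparison (9.56% of all genes). Named genes then changed sign. In cortex-labelled libraries at 2 months Bst2 was at -1.10, Isg15 at -1.18, Usp18 at -0.95, Stat2 at -0.37, Xaf1 at -0.62 and Ifit1 at -0.031. In brainstem-labelled ones Ifi204 was at -1.11, Zbp1 at -0.68, Usp18 at -1.13, Ifit1 at -0.39, Ifi27l2a at -1.96 and Dtx3l at -0.31. For genotype by region at 2 months Bst2 was at 0.86, Isg15 at 0.69 and Ifi35 at 0.47. For genotype by stage in cortex-labelled libraries Bst2 was at 1.74, Ifi35 at 0.62 and Isg15 at 2.49. For stage in controls, Bst2 was at -1.54, Ifit3b at -2.26 and Samd9l at -1.85 (cortex-labelled), Dtx3l at -0.11 and Ifih1 at -0.10 (brainstem-labelled). Without the 4 mice of disputed genotype, the median log2 difference was 3.81 in cortex-labelled libraries at 2 months and -1.40 in the region comparison. Percentages in brackets are the share of all genes called, over 33450 genes with no low-count filter. Without that filter, 26 (3.83%) and 36 (1.72%) were called at end-stage (cortex-labelled, brainstem-labelled). In brainstem-labelled libraries at 2 months 35 (1.49%) were called. For genotype by region 20 (1.05%) and 13 (0.661%) were called (2 months, end-stage). For genotype by stage 27 (1.69%) and 3 (0.568%) were called, and for stage in controls 16 (0.843%) and 9 (0.807%). DESeq2 called 4 (7.25%) and 19 (2.13%) at end-stage and 15 (1.19%) in brainstem-labelled libraries at 2 months. It called 2 (0.591%) for genotype by region at 2 months and 2 (1.46%) for genotype by stage in cortex-labelled libraries. With only the compared groups, 0 were called at end-stage in brainstem-labelled libraries. With the mouse as a replicate block, 4 (0.723%) were called for genotype by region at 2 months and 33 (17.6%) for region. With limma-voom and the mouse as a random block (correlation 0.18), 0 were called in both end-stage comparisons (3.8% cortex-labelled, 0.253% brainstem-labelled). That fit called 1 (0.253%) for genotype by stage in cortex-labelled libraries. The block changed no other count by over 1.5 times. With each mouse left out in turn, 31 to 40 genes were called in cortex-labelled libraries at 2 months, 0 to 3 in brainstem-labelled ones, 0 to 5 and 0 to 12 at end-stage, 0 to 1 for genotype by region at 2 months, 0 to 2 for genotype by stage in cortex-labelled libraries, and 20 to 29 for region. The cause of these changes was not tested. Over all genes the count in cortex-labelled libraries at 2 months was 904, 1551 with no filter, 1562 by DESeq2 and 1 by the record. At end-stage these counts were 666, 1282, 1203 and 171. In brainstem-labelled libraries they were 6, 499, 198 and 1 (2 months) and 25, 574, 354 and 1 (end-stage). Precision is limited by 2 or 3 mice a group.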
